A study of Homo sapiens with 4 samples.

Results

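The human miRNAs hsa-miR-192-5p and hsa-miR-194-5p (below without the species prefix) come from hairpins that lie side by side on chromosome 11, and they were chosen because their counts moved apart when ERH was knocked down. They are 2 of 2366 human miRNA rows in the deposited tables, and both are among the 464 miRNAs with enough reads to be tested. Small RNAs were sequenced from K562-dCas9-KRAB cells, a human chronic myeloid leukaemia line that carries dCas9-KRAB. This inactive Cas9 fused to a transcriptional repressor silences the gene to which a guide RNA directs it (CRISPR interference). All 4 libraries came from polyclonal, doxycycline-inducible lines with guide RNA 1 or guide RNA 2 against ERH, sampled on day 5. The 2 knockdown libraries, 1 per guide RNA, had 0.05 µg/ml doxycycline, and the 2 control libraries, 1 per guide RNA, had none, so controls carried the guide RNA too. No library with doxycycline but with no guide RNA against ERH was used here, so effects of the drug and of the knockdown cannot be told apart. These small-RNA counts hold no ERH mRNA, so the extent of the knockdown was not checked. Only 1 culture per guide RNA and condition is labelled, and spreads are therefore between 2 lines.

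A miRNA is cut from a long primary transcript as a hairpin by the Microprocessor (the nuclease Drosha with its partner DGCR8), and Dicer then trims the hairpin to a duplex with a 5p and a 3p arm. Usually 1 arm is kept by an Argonaute protein, which it guides to target mRNAs through its seed. ERH is a small conserved protein known to bind the Microprocessor, and the study asks how it helps poor hairpins that lie beside good ones. miR-192, miR-194 and miR-215 are known as miRNAs of gut, liver and kidney epithelium and as targets of the tumour suppressor p53.

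The mature sequences are shown because the seed (bases 2 to 8, in capitals) puts the neighbours in different families, while miR-192-5p shares its seed with a miRNA of another chromosome. Sequences are from RefSeq (GRCh38.p14), written 5′ to 3′.
miR-192-5p: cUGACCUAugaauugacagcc
miR-215-5p: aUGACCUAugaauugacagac
miR-194-5p: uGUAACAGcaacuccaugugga
miR-192-3p: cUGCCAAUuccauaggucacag
miR-194-3p: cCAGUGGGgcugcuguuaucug
miR-192-5p and miR-215-5p are identical at 19 of 21 bases and differ by C1A and C20A, with positions counted from the 5′ end and the base of miR-192-5p first. Of the human names matched to a RefSeq mature sequence, these 2 hold the seed UGACCUA, and miR-194-5p alone holds GUAACAG. How reads that match near-identical miRNAs were assigned is not given in the sources used here.

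miR-194-5p has 2 loci, and each lies beside a member of the miR-192 and miR-215 family. On chromosome 11 (GRCh38, minus strand) MIR194-2 spans 64891355-64891439 and MIR192 spans 64891137-64891246, with 108 bases between them. Both lie in 1 exon of the long noncoding RNA MIR194-2HG (GENCODE 29). On chromosome 1, also on the minus strand, MIR194-1 spans 220118157-220118241 and MIR215 spans 220117853-220117962, a little further apart. Both lie in an intron of IARS2 on the strand opposite to it. Reads of miR-194-5p cannot be split between the loci, since the mature sequence is the same. miR-194-3p is found in the MIR194-2 hairpin and not in the MIR194-1 hairpin, so its reads report on chromosome 11.

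**Figure D1:**
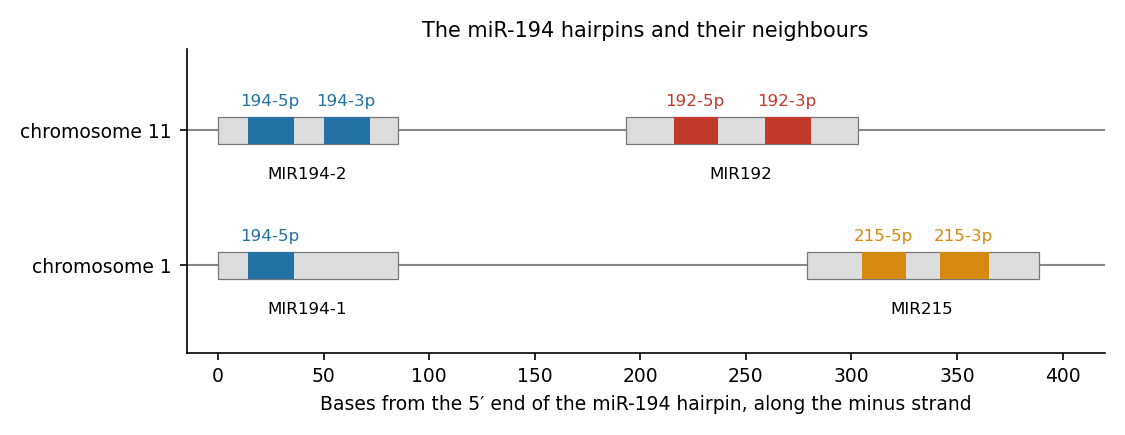
Map of the 2 loci, with distance in bases from the 5′ end of each miR-194 hairpin along the minus strand. Grey boxes are hairpins and coloured boxes their annotated mature arms. In both loci the miR-194 hairpin comes first, followed by miR-192 on chromosome 11 and by miR-215 on chromosome 1.

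The hairpins are shown with their annotated arms in capitals, since the neighbours differ in sequence outside the mature arms and the 2 miR-194 hairpins differ from each other there.
MIR192: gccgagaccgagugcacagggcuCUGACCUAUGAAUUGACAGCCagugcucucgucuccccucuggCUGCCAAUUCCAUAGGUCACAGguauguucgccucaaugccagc
MIR194-2: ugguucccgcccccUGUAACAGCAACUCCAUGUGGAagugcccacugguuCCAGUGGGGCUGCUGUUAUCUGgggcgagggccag
MIR194-1: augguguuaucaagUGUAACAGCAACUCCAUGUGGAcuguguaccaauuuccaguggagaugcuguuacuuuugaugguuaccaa
MIR215: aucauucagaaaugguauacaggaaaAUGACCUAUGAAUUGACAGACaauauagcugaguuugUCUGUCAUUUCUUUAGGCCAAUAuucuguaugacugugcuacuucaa
The predicted fold energy of the whole MIR194-2 hairpin was -49.6 kcal/mol, or -0.58 per base, and 83.3% of 1560 RefSeq hairpins were less stable per base. For MIR192 it was -39.0 kcal/mol, or -0.35 per base, and 18.97% of hairpins were less stable. From the start of the 5p arm to the end of the 3p arm, without the outer stem, the order of total energies turned. The energy was -29.6 kcal/mol over 65 bases for MIR192 and -26.1 over 58 bases for MIR194-2. These stretches differ in length and were not compared per base. The median of 739 hairpins with both arms annotated was -26.5. MIR194-1 was at -38.4 kcal/mol, or -0.45 per base, and has no annotated 3p arm in the table used. MIR215 had the least stable fold of the 4 hairpins, at -33.0 kcal/mol or -0.30 per base, and -21.6 kcal/mol from arm to arm. The loop between the arms holds the letters UGU or GUG, searched on the transcribed strand, in MIR192 and MIR194-2 and not in MIR215, and it holds them in 46.0% of the 739 hairpins. These are predictions from sequence and were not measured in the libraries.

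The libraries held 1430434 to 2476700 miRNA reads, and 2 added RNAs that the row names mark as spike-ins, frog miR-427 and fly miR-14, came to 2.0% to 3.23% of that. The erythroid miRNAs expected of K562 cells (miR-144, miR-451a and miR-486) summed to 40129 to 53691 CPM (counts scaled to a common library total). Of 4 brain and muscle miRNAs with rows, miR-206 had 0 reads in every library, miR-124-3p 0 or 1 and miR-1-3p 1 to 8, but miR-9-5p, known from brain, had 293 to 371 CPM. Values between libraries depend on how they are scaled. TMM, the scaling used for the fit, centres a trimmed mean of the log ratios near 0, whereas scaling by the spike-ins moved the median log2 change over the 464 tested miRNAs up by 0.68 and scaling by library size moved it up by 0.44. Changes below are with TMM, and thus relative to the bulk of miRNAs, unless a sentence names another scaling. A ratio of 2 miRNAs within a library needs no scaling.

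After knockdown miR-192-5p was lower and miR-194-5p higher relative to the bulk of miRNAs, with either guide RNA. Relative to the spike-ins, however, miR-192-5p stood level and only miR-194-5p of the pair was higher. Within a library there were 1.79 ± 0.10 reads of miR-194-5p for each read of miR-192-5p in controls and 4.16 ± 0.42 after knockdown (SD, n = 2). Both miRNAs were chosen with this contrast known, so these values are a description without a test.

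miR-192-5p, which represses cell cycle genes in epithelial cells, had 676 reads after knockdown with guide RNA 1 and 782 with guide RNA 2, against 532 and 948 in the controls. Scaled with TMM these were 257 and 286 CPM after knockdown and 422 and 457 CPM in controls. On this scale both knockdown libraries were below both controls. The miRNA was chosen for this contrast, so that separation is not read as a result. The mean was 439.7 ± 25.1 CPM in controls and 271 ± 20.3 CPM after knockdown (SD, n = 2), rank 107 and rank 124 of the 464 tested miRNAs. The fitted log2 fold change was -0.70 ± 0.085 (SE), and within the guide RNAs the values were -0.71 and -0.68. It was -0.26 with library size, -0.01 with spike-in scaling and 0.28 with the fly spike-in alone, so the direction of miR-192-5p depends on the scaling.

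miR-194-5p, known for its abundance in differentiated gut epithelium, had 3013 and 3023 reads after knockdown with guide RNA 1 and guide RNA 2, against 990 and 1630 in the controls. These were 1145 and 1104 CPM after knockdown and 785 and 786 CPM in controls. By library size the controls stood at 692 and 658 CPM, whereas with TMM they nearly coincided. The mean was 785.8 ± 0.889 CPM in controls and 1124 ± 28.99 CPM after knockdown (SD, n = 2), rank 85 and rank 69. The fitted log2 fold change was 0.52 ± 0.063 (SE), with 0.54 and 0.49 within the guide RNAs. It was positive under every scaling tried, at 0.96 with library size and 1.20 with spike-in scaling.

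Measured against the added RNAs, miR-192-5p had 11.4 reads per 1000 spike-in reads after knockdown with guide RNA 1 and 11.5 in its control, and 16.3 in both libraries of guide RNA 2. These values differed more between the guide RNAs than between knockdown and control. miR-194-5p had 50.9 and 63.1 reads per 1000 spike-in reads after knockdown and 21.5 and 28.0 in controls, a level 2.37-fold and 2.25-fold higher within guide RNA 1 and guide RNA 2. With the fly RNA alone, the less abundant of the 2, miR-192-5p was 1.07-fold and 1.32-fold and miR-194-5p 2.56-fold and 2.98-fold its control. How much of each RNA was added, and per what, is not given in the sources used here, so whether this scale reads molecules per cell was not tested.

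**Figure D2:**
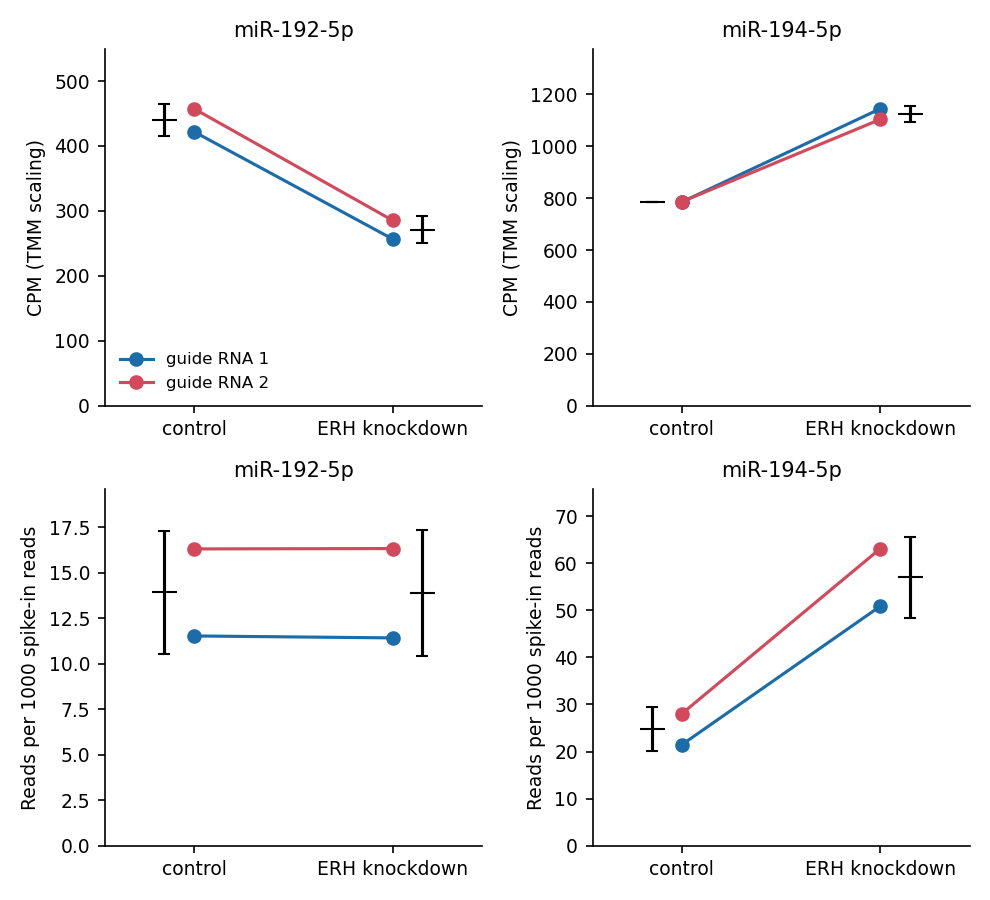
Levels of miR-192-5p (left) and miR-194-5p (right) in the 4 libraries, as TMM-scaled CPM (top) and per 1000 spike-in reads (bottom). Lines join the libraries of a guide RNA, and black bars are the group mean ± SD (n = 2). miR-192-5p is lower after knockdown in the upper panel and level in the lower one, and miR-194-5p is higher in both.

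Of the 464 tested miRNAs, 236 (50.9%) were called by edgeR's quasi-likelihood test with a threshold of 0.05 on the Benjamini-Hochberg adjusted p, 25.6% up and 25.2% down. The pair was picked from these calls, so its own calls are not evidence. There were 44 tested miRNAs with a log2 fold change below that of miR-192-5p and 127 above that of miR-194-5p, around a median of 0.06 and a middle range (first to last quartile) of -0.32 to 0.58. miR-192-5p thus stood below the lower quartile, and miR-194-5p a little short of the upper quartile.

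**Figure D3:**
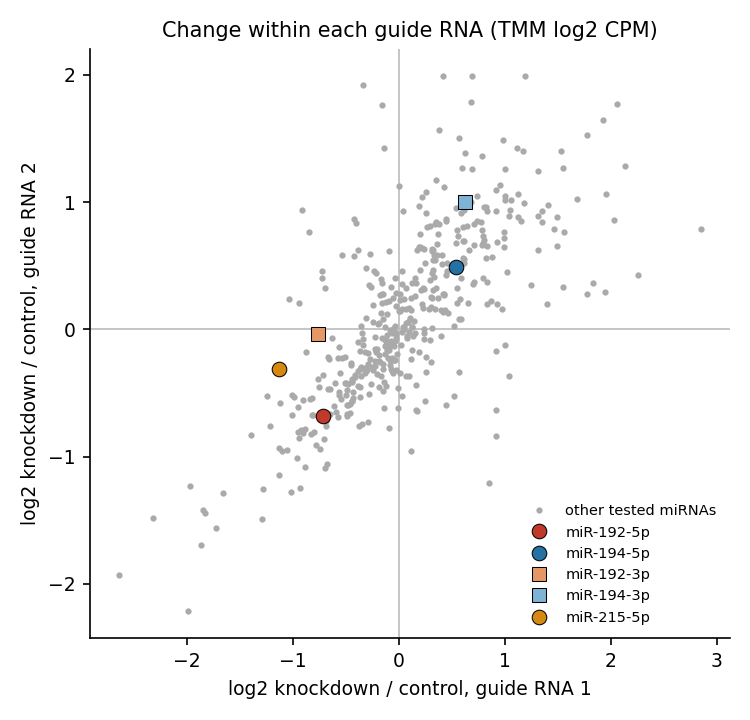
Log2 change after knockdown with guide RNA 1 (horizontal axis) and guide RNA 2 (vertical axis), on TMM log2 CPM, for the 464 tested miRNAs. miR-192-5p lies at -0.71 and -0.68, miR-194-5p at 0.54 and 0.49, and the low-count arms and miR-215-5p are marked.

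The count of miR-192-5p per count of miR-194-5p was 0.224 and 0.259 after knockdown and 0.537 and 0.582 in controls. The pair was chosen for this difference, so the separation of the groups is not read as a result. The controls had a mean ratio of 0.559 ± 0.031, and the knockdown libraries a 2.32-fold lower one of 0.242 ± 0.024 (SD, n = 2). The log2 ratio changed by -1.26 with guide RNA 1 and by -1.17 with guide RNA 2. Of the reads of both, miR-192-5p took 18.3% (95% Wilson interval 17.1% to 19.6%) and 20.6% (19.3% to 21.9%) after knockdown. In controls it took 35.0% (32.6% to 37.4%) and 36.8% (34.9% to 38.7%). These intervals cover counting error only.

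The 3p arms, which were not used to choose the pair, both come from chromosome 11 and were rare. The knockdown libraries held 15 and 27 reads of miR-192-3p, where the controls held 13 and 21. Of miR-194-3p they held 11 and 21, where the controls held 3 and 7. Scaled with TMM, miR-194-3p stood at 4.18 and 7.67 CPM after knockdown and 2.38 and 3.38 in controls, and miR-192-3p at 5.70 and 9.86 against 10.3 and 10.1. On this scale miR-194-3p was higher and miR-192-3p lower after knockdown, the latter by as little as 9.86 against 10.1 CPM. By library size the groups of miR-192-3p overlapped (6.73 and 11.3 CPM against 9.09 and 8.48). How many of all tested miRNAs have groups without overlap was not counted, so separation of the groups is not read as a result. The log2 fold change of miR-194-3p was 0.98 ± 0.49 (SE, edgeR adjusted p = 0.109), and that of miR-192-3p was -0.38 ± 0.35 (edgeR adjusted p = 0.385). miR-194-3p passed with library size (1.42, edgeR adjusted p = 0.0089) and with spike-in scaling (1.65, edgeR adjusted p = 0.0221), and miR-192-3p turned to 0.06 and 0.30.

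The ratio of the 3p arms moved the same way as that of the 5p arms, within wide counting error. There were 1.36 and 1.29 reads of miR-192-3p per read of miR-194-3p after knockdown and 4.33 and 3 in controls. The log2 ratio changed by -1.67 and -1.22 within the guide RNAs and by -1.45 in the mean, with a 95% counting interval of -2.74 to -0.15. An exact two-sided permutation test of 2 libraries against 2 gave p = 0.333, the smallest it can give. Fisher's exact test of the reads, which compares libraries and not conditions, gave p = 0.180 for guide RNA 1 and p = 0.140 for guide RNA 2. This ratio was chosen after the counts had been seen.

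**Figure D4:**
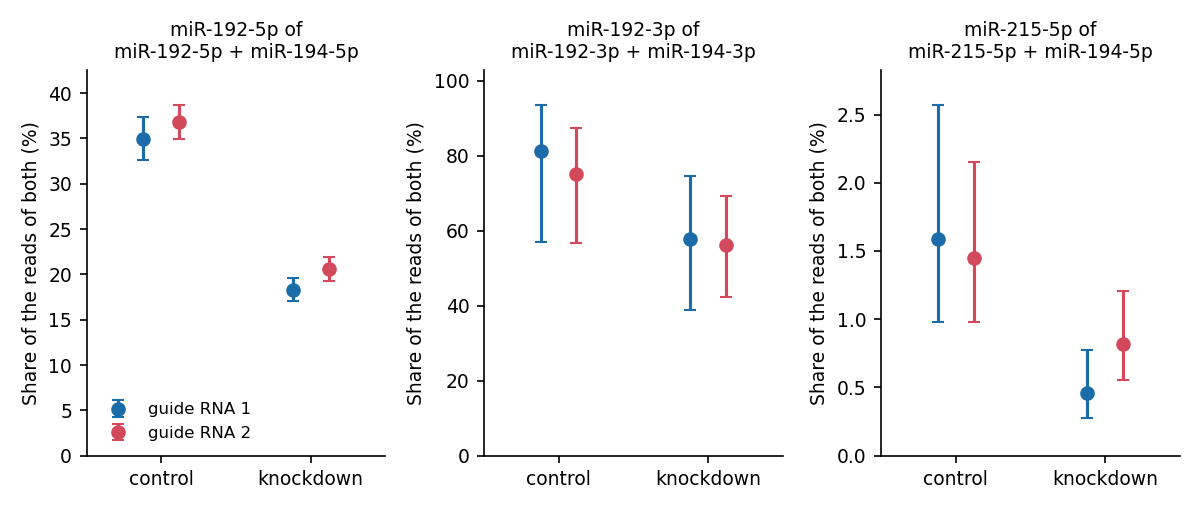
Share of the first miRNA in the reads of a pair, per library, with 95% Wilson intervals for counting error. The share of miR-192-5p is 35.0% and 36.8% in controls and 18.3% and 20.6% after knockdown. For the 3p arms and for miR-215-5p the shares are also lower after knockdown, with wider intervals.

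miR-215-5p, the seed relative of miR-192-5p and the neighbour of the other miR-194 hairpin, had 14 and 25 reads in the knockdown libraries and 16 and 24 in the controls. The control libraries had 39.5 and 33.2 reads of miR-192-5p for each read of miR-215-5p with guide RNA 2 and guide RNA 1, and the knockdown libraries had 31.3 and 48.3. The groups overlapped, and the log2 ratio changed by 0.10 with a 95% counting interval of -0.56 to 0.77. Its log2 fold change was -0.72 ± 0.34 (SE, edgeR adjusted p = 0.0841), and it passed without knockdown replicate 2 (-1.17, edgeR adjusted p = 0.044). Against miR-194-5p, its chromosome 1 neighbour, miR-215-5p went from 16.2 and 14.7 reads per 1000 in controls to 4.65 and 8.27 after knockdown.

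Of the other arms and neighbours, 0 of 3 tested passed in edgeR, where 50.9% of all tested miRNAs did, and 1 (miR-215-5p) had an unadjusted p under 0.05. With library size or spike-in scaling 1 of the 3, miR-194-3p, passed. In DESeq2, 0 passed and 0 had an unadjusted p under 0.05, with no adjusted p given for 1 of the 3. The remaining rows were too low to test. miR-215-3p had 1 read in each library. miR-6750, a hairpin 6923 bases from MIR194-2 inside ATG2A, had 0 reads of its 5p arm in every library, which allows up to 3 reads or 1.10 to 2.38 CPM. The knockdown libraries held 0 and 1 reads of its 3p arm, and the controls 5 and 1.

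The balance of arms within each hairpin showed no separation of the groups. miR-192-3p made 22.2 and 34.5 reads per 1000 of miR-192-5p after knockdown and 24.4 and 22.2 in controls, a log2 change of 0.25 with a 95% counting interval of -0.43 to 0.93. miR-194-3p made 3.65 and 6.95 reads per 1000 of miR-194-5p after knockdown and 3.03 and 4.29 in controls, a log2 change of 0.48 with an interval of -0.63 to 1.59. The depth of the 3p arms does not bound these changes tightly, and miR-194-5p counts both loci whereas miR-194-3p counts that of chromosome 11.

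Among the neighbouring hairpins counted here, most pairs parted less than the chosen one, which was picked for its parting. Its place among them is therefore a description without a test. Each hairpin was represented by its most abundant tested miRNA, which need not be its main arm. A ratio between such arms can also hold a change of arm use, which was not tested. In all, 106 pairs of names were found within 10 kb on a strand. These do not hold every neighbour pair, since miR-144-3p and miR-451a, which share a locus, are absent. Both were tested and also moved apart, with log2 fold changes of 0.74 and -0.48. Their place among the pairs was not computed. In 9 of the 106 (8.49%), the chosen pair among them, the log2 count ratio changed by 1 or more, and the median size of change was 0.28. Away from chromosome 19 it did so in 5 of 60 pairs. A miRNA can be in several pairs, so the pairs are not independent. The chosen pair stood at 1.21, with 5 of the counted pairs further apart. Of the 45 counted pairs in which both miRNAs averaged at least 100 reads, 2 parted by 1 or more. They were this pair and miR-18a-3p with miR-19a-5p, at 1.34. The pair of miR-194-5p with miR-215-5p on chromosome 1 was among those further apart, at 1.31 (1.79 and 0.83 within the guide RNAs), but it shares the reads of miR-194-5p with the chosen pair and rests on a mean of 19.8 reads of miR-215-5p.

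**Figure D5:**
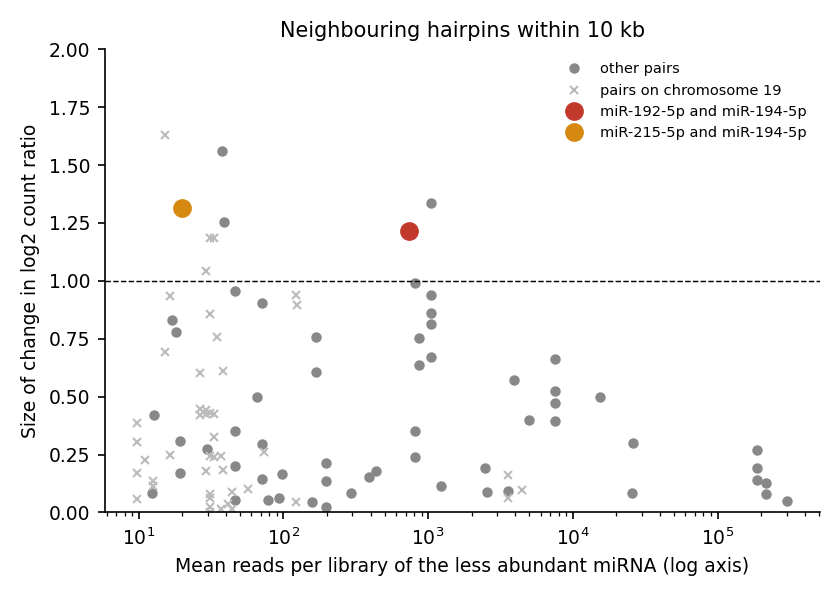
Size of the change in log2 count ratio after knockdown for 106 pairs of neighbouring hairpins, against the mean reads of the less abundant miRNA (log axis). The dashed line marks 1. miR-192-5p with miR-194-5p lies at 1.21, and most pairs lie below 0.66.

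The miRNAs whose profiles over the 4 libraries were nearest to each of the pair were found by the root mean square distance of centred TMM log2 CPM. Nearest to miR-192-5p were miR-92a-3p of the miR-17~92a-1 cluster (distance 0.033), miR-374b-5p (0.041) and miR-224-5p (0.061). Their log2 fold changes were -0.72 ± 0.063, -0.69 ± 0.057 and -0.66 ± 0.049 (SE), and with spike-in scaling they too stood near 0, at -0.04, 0.01 and 0.03. Nearest to miR-194-5p were miR-197-3p (0.034), miR-3613-5p (0.039) and miR-326 (0.040). Those had log2 fold changes of 0.46 ± 0.054, 0.54 ± 0.077 and 0.58 ± 0.075, and 1.15, 1.23 and 1.27 with spike-in scaling. They were selected for likeness over 4 libraries, so their agreement in direction is no separate result.

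Other miRNAs known to respond to p53 did not move in 1 direction. Of 13 listed names 10 had rows and 4 were tested, of which 1 rose and 2 fell, with a median of -0.37 against 0.06 for all tested miRNAs. miR-145-5p, a smooth muscle miRNA, rose by 0.26 ± 0.065 (SE, edgeR adjusted p = 0.0041), a call lost with the fly spike-in alone (1.24, edgeR adjusted p = 0.0663). It was also lost without knockdown replicate 1 (0.25, edgeR adjusted p = 0.0919), knockdown replicate 2 (0.25, edgeR adjusted p = 0.0616) or control replicate 2 (0.19, edgeR adjusted p = 0.0649). miR-34a-5p, a direct p53 target, had 11 and 10 reads in the knockdown libraries and 20 and 26 in the controls and fell by 1.81 ± 0.34 (SE, edgeR adjusted p = 5.20e-04). It was not called with the fly spike-in alone (-0.91, edgeR adjusted p = 0.231). miR-16-1-3p, from a hairpin whose processing p53 promotes, fell by 0.49 ± 0.13 (SE, edgeR adjusted p = 0.0047), and was at -0.05 with library size and 0.19 with spike-in scaling, uncalled in each. miR-34c-5p, with 4 to 17 reads, was at -0.25 ± 0.52 (SE, edgeR adjusted p = 0.718), and at 0.33 without knockdown replicate 2 and 0.40 without control replicate 2, uncalled. The share of these that passed is read against the 50.9% of all tested miRNAs.

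miRNAs of gut, liver and epithelium, among which miR-192 and miR-194 are usually found, were sparse in these cells. Of 9 names 7 had rows and 2 were tested, and miR-203a-3p had 0 reads in every library. miR-122-5p, the main miRNA of liver, had 5 and 2 reads in the knockdown libraries and 1 and 4 in the controls. miR-200c-3p, an epithelial miRNA, rose by 0.35 ± 0.14 (SE, edgeR adjusted p = 0.0435), and was not called with size factors (RLE) in place of TMM (adjusted p = 0.0784), in the fit blocked by guide RNA (adjusted p = 0.0767) or by DESeq2 (adjusted p = 0.286). Without a filter (0.37), or without knockdown replicate 1 (0.28), knockdown replicate 2 (0.41), control replicate 1 (0.33) or control replicate 2 (0.35), it was not called by edgeR either, at adjusted p-values of 0.065 to 0.1665. It was called with library size (0.80) and with spike-in scaling (1.03). Its cluster partner miR-141-3p was at 0.21 ± 0.17 (edgeR adjusted p = 0.303), and was called with library size (0.66, edgeR adjusted p = 0.0011) and with spike-in scaling (0.90, edgeR adjusted p = 0.0287). The summed level of the list was 142 to 149 CPM by library size after knockdown and 84.0 to 96.5 in controls, on a scale where the median log2 fold change of tested miRNAs was 0.50. Its part in the result was not tested. The level of miR-194-5p alone, 658 to 1353 CPM on that scale, was above the whole list in every library.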

How the data were processed

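The deposited values are raw read counts per mature miRNA from gel-purified small RNA, in 2368 rows per library. The sources used here do not name the aligner, annotation release or build. The 2366 human rows of 4 libraries (2 per group) were filtered with filterByExpr (minimum count 10, minimum total 15), scaled with TMM and tested with edgeR 4.0.16 (quasi-likelihood, Benjamini-Hochberg over 464 miRNAs) in R 4.3.3, without a block. The scripts were tested on simulated data. log2 CPM used a prior count of 2, and neighbour ratios used 0.5 added reads. DESeq2 1.42.0 was an alternative. A guide RNA number marks a polyclonal line, so it pairs the samples by design, although the deviations of same-numbered libraries had a correlation of -0.11. Within a group no library was a duplicate of the other, with chi-square over degrees of freedom of 4.72 for knockdown and 10.7 for control libraries. Libraries of different groups were not compared in this way. The p-values rest on the spread between 2 libraries a group, with the dispersion moderated over all tested miRNAs. The 2 libraries are of different guide RNA lines, so line, culture and technical differences cannot be told apart in that spread.

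Names were matched to RefSeq mature sequences (GRCh38.p14, 2090 of 2366 matched), and hosts came from GENCODE 29. Fold energies came from RNAfold 2.7.2. Counting intervals assume Poisson or binomial error. The pair, the lists and the rule for named miRNAs (the pair, its other arms and relatives, listed miRNAs, and the 3 nearest profiles each) were chosen with earlier results of these data known. Plots used matplotlib 3.10.9.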

Additional observations from a re-analysis of the deposited data

Results flagged for a closer look

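The lines of the 2 guide RNAs moved in opposite directions in a pair of within-library ratios, and this difference was not tested. The log2 ratio of miR-192-5p to miR-215-5p changed by 0.54 with guide RNA 1 and by -0.34 with guide RNA 2. The log2 ratio of miR-192-3p to miR-192-5p changed by -0.14 with guide RNA 1 and by 0.64 with guide RNA 2. Each ratio rests on 13 to 27 reads per library of its rarer miRNA.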

How the results depend on the processing

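The change of the log2 ratio of the pair, miR-192-5p over miR-194-5p, -1.21, held with both arms summed, with 1 read added, from the fitted fold changes and as a replicate block, at -1.21 to -1.22, and leaving out 1 library gave -1.32 to -1.11. The separate log2 fold changes depend on scaling. For miR-192-5p (-0.70) they were -0.75 with RLE factors, -0.26 with library size, -0.0064 with spike-in scaling, -0.041 with the frog spike-in alone, 0.28 with the fly spike-in alone, -0.66 with a mean of at least 10 CPM, -0.75 with DESeq2 and -0.78 to -0.64 without 1 library. For miR-194-5p (0.52) they were 0.47 with RLE factors, 0.96 with library size, 1.20 with spike-in scaling, 1.17 with the frog and 1.48 with the fly spike-in alone, 0.56 with a mean of at least 10 CPM, 0.47 with DESeq2 and 0.48 to 0.54 without 1 library. As a replicate block, guide RNA gave -0.70 and 0.52, changed the call of miR-200c-3p among the miRNAs named here and gave 230 calls in all; the crossed pairing gave 241. The spike-ins taken alone, and the crossed pairing, were chosen after seeing the data. Calls over all miRNAs numbered 236 (119 up, 117 down), 314 with library size (273 up, 41 down), 186 up and 8 down with spike-in scaling, 145 with the fly spike-in alone (144 up, 1 down), 150 with DESeq2 (48 up, 102 down) and 117 to 195 without 1 library, the fewest without knockdown replicate 1 (117) and control replicate 2 (140). Of the other arms and relatives, 0 passed, against 1 (miR-194-3p) with library size, spike-in scaling, the frog or the fly spike-in alone, and 0 to 1 without 1 library. miR-192-3p (-0.38) turned to 0.061 with library size, 0.30 with spike-in scaling, 0.26 with the frog and 0.60 with the fly spike-in, and miR-215-5p (-0.72) to 0.26 with the fly spike-in. With a mean of at least 10 CPM none of the 3 was tested. Neighbour pairs parted by 1 or more numbered 5 of 61 within 3 kb and 20 of 229 within 50 kb, since fewer or more pairs are counted. Where a value moved with the scaling, the cause was not tested. Arms under 30 reads limit what the depth can show.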
